A study of Mus musculus with 9 samples.

Results

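The genes described here encode 10 secreted ligands of the transforming growth factor-beta (TGF-beta) family in the neonatal mouse heart, chosen by name: Bmp2, Bmp4, Bmp5, Bmp6, Bmp7, Bmp10, Tgfb1, Tgfb3, Inhba and Mstn. All 10 were found among the 38293 genes of the count table, and 9 of the 10 had enough reads for the test across genes. In cKO ventricles Arid1a is deleted by a cardiomyocyte Cre. There the myostatin gene Mstn and the activin gene Inhba rose past the threshold for a call. Tgfb3 rose by less, and no BMP gene passed the test in either direction. Mstn had few reads and entered the test through its reads in cKO alone.

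Ligands of this family are made as precursors, cleaved and secreted as dimers. They bind pairs of type I and type II receptor kinases on the cell surface, which phosphorylate Smad proteins. The Smads then enter the nucleus and regulate transcription. BMPs act mainly through Smad1, Smad5 and Smad9, whereas TGF-betas, activins and myostatin act mainly through Smad2 and Smad3. Secreted antagonists such as follistatin-like proteins and gremlins bind the ligands outside the cell, and latent TGF-beta is held in the matrix until it is released. In the heart, BMPs are known for roles in cardiac specification, valve formation and trabeculation, TGF-betas for matrix production by fibroblasts, and myostatin for restraining muscle growth.

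Poly(A) RNA-Seq of ventricles at postnatal day 7 asked how loss of Arid1a, which belongs to the SWI/SNF family of chromatin remodellers, alters gene expression in the heart. The 5 control libraries came from littermates labelled Arid1a f/f control, and the 4 cKO libraries from aMHC-Cre;Arid1a f/f mice. Both groups thus carried the floxed allele, and only the cKO group is labelled with the Cre transgene, whose alpha myosin heavy chain promoter is active in cardiomyocytes. The effect of Cre itself cannot be told apart from that of the deletion, and in whole ventricles the other cell types keep Arid1a. The labels do not say whether a library was made from 1 animal or from a pool, whereas a legend of the study counts 5 control and 4 cKO hearts. The p-values measure the spread between these libraries.

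Libraries held 31011055 to 40073801 counts. Arid1a itself was lower in every cKO library, at 139.8 ± 8.84 CPM (counts scaled to 1e6 per library, SD, n = 5) in controls and 106.4 ± 5.44 CPM (SD, n = 4) in cKO, which is -0.39 as a log2 fold change (SE 0.06) with an adjusted p of 0.0013 by edgeR. Cardiomyocyte markers summed to 51967 to 59477 CPM in controls and 45837 to 48648 CPM in cKO over 7 genes. All 7 estimates were below 0, and 2 passed as lower by edgeR (28.6%, against 8.03% of all genes), 4 by DESeq2 and 1 by edgeR in the low-Rps3a3 libraries described next. The libraries also fell into sets by Rps3a3, a copy of a ribosomal protein gene: it was under 10 CPM in control replicates 1 and 2 and cKO replicates 1 to 3 (the low-Rps3a3 set) and above it in control replicates 3 to 5 and cKO replicate 4 (the high-Rps3a3 set). The sets cut across genotype, and the high-Rps3a3 set holds 1 cKO library. In a fit to the low-Rps3a3 libraries alone Arid1a was at a log2 fold change of -0.33, with an adjusted p of 0.0822 by edgeR. The labels do not say what the sets are.

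Sequences just upstream of 3 ligand genes are shown because these genes behaved differently in the comparison: Mstn and Inhba were called, whereas Tgfb1 was not. Each run is the 250 bases before the RefSeq start of the gene on GRCm38.p6, written 5′ to 3′ on the strand of the gene. Capitals mark a TATA box or the core of a Smad binding element on either strand, with the letters searched spelled out after the runs.
Mstn: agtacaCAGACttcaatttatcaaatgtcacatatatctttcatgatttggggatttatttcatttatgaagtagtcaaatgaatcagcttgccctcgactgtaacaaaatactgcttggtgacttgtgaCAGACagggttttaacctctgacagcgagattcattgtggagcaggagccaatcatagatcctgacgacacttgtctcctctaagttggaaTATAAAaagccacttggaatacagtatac
Inhba: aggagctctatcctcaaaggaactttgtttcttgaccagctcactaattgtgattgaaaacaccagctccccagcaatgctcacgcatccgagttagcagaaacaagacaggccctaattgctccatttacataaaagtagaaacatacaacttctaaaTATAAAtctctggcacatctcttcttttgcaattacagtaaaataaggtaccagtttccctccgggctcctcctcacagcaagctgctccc
Tgfb1: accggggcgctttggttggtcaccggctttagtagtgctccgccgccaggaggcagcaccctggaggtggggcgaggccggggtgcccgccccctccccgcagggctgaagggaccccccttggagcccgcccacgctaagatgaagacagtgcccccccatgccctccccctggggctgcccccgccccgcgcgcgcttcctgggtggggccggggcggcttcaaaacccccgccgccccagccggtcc
The run of Mstn lies at chr1:53061390-53061639 on the plus strand and has a GC content of 38.4%. That of Inhba lies at chr13:16011601-16011850 on the plus strand with 43.2% GC, and that of Tgfb1 at chr7:25686752-25687001 on the plus strand with 75.2% GC. Over all 32851 promoters of the same length in the RefSeq table the median GC content was 52.4%, with quartiles of 45.2% and 61.2%. Both called genes lay below the lower quartile and Tgfb1 above the upper one. Bmp5, which did not pass the test, also lay below the lower quartile, at 42.8%. Bmp10, Bmp4 and Bmp6 were at 52.0, 63.2 and 68.8%, so GC content did not separate called from uncalled genes. Promoters were found for 7 of the 10 ligand genes; those of Bmp2, Bmp7 and Tgfb3 are named only. Of these 7 promoters, 2 held the TATA box letters TATAAA, Mstn (ending 24 bases before the start) and Inhba (ending 86 bases before the start), against 12.4% of all promoters. The core of the Smad binding element, CAGAC, occurred at 2 places in Mstn and at 1 each in Bmp5 and Bmp6, against 42.2% of all promoters with at least 1. The AP-1 letters TGANTCA occurred once in Mstn and in no other of the 7 (6.75% of all promoters). The TEAD letters GGAATG (12.6% of all promoters) were in none of the 7. The GATA letters AGATAA (9.99%) were found at 2 places in Bmp10, and the E box CANNTG (66.2%) at 4 places in Mstn, 3 in Bmp4 and 2 in Bmp6. These motifs were picked with the data and sequences already in view, both strands were searched, 1 pair of matches of different motifs overlapped in Mstn and none in the other 6 promoters, and a match is only a description of the letters.

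In the control ventricle the ligand mRNAs spanned a wide range of levels. Levels of different genes were compared as CPM per kb of annotated exon. Tgfb3 was the most abundant of the 10, at 9.45 ± 0.80 CPM per kb (SD, n = 5), followed by Tgfb1 at 4.76 ± 0.667 and Bmp4 at 4.70 ± 0.544 CPM per kb, whose ranges overlapped. Bmp6 (3.51 ± 0.106 CPM per kb) and Bmp7 (2.52 ± 0.379 CPM per kb) came next, each apart from its neighbours. Bmp5 at 1.21 ± 0.284 and Bmp2 at 0.843 ± 0.118 CPM per kb overlapped each other. Inhba, at 0.291 ± 0.0570 CPM per kb, stood alone, and Mstn (0.0288 ± 0.0284 CPM per kb) overlapped with Bmp10 (0.0125 ± 0.0180 CPM per kb) at the bottom. Of the 9 pairs of neighbours, 3 overlapped in range. Thus Tgfb3 mRNA exceeded that of every BMP, and both genes called in the comparison were among the 3 lowest of the 10.

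In cKO ventricles the order was nearly kept. Tgfb3 remained first at 13.2 ± 0.988 CPM per kb (SD, n = 4), and Bmp4 (5.45 ± 1.25 CPM per kb) and Tgfb1 (5.12 ± 0.587 CPM per kb) changed places within overlapping ranges. Inhba reached 0.512 ± 0.122 CPM per kb and then overlapped with Bmp2 at 0.638 ± 0.0714 CPM per kb, from which it had been separate in controls. Mstn was at 0.225 ± 0.0922 CPM per kb and no longer overlapped with Bmp10, which had no count. The third TGF-beta gene, Tgfb2, is not among the 10. In controls its mean lay between those of Tgfb3 and Tgfb1 (5.27 ± 0.709 CPM per kb), and its range overlapped that of Tgfb1. Tgfb2 did not pass the test (log2 fold change 0.20, adjusted p = 0.296 by edgeR).

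**Figure D1:**
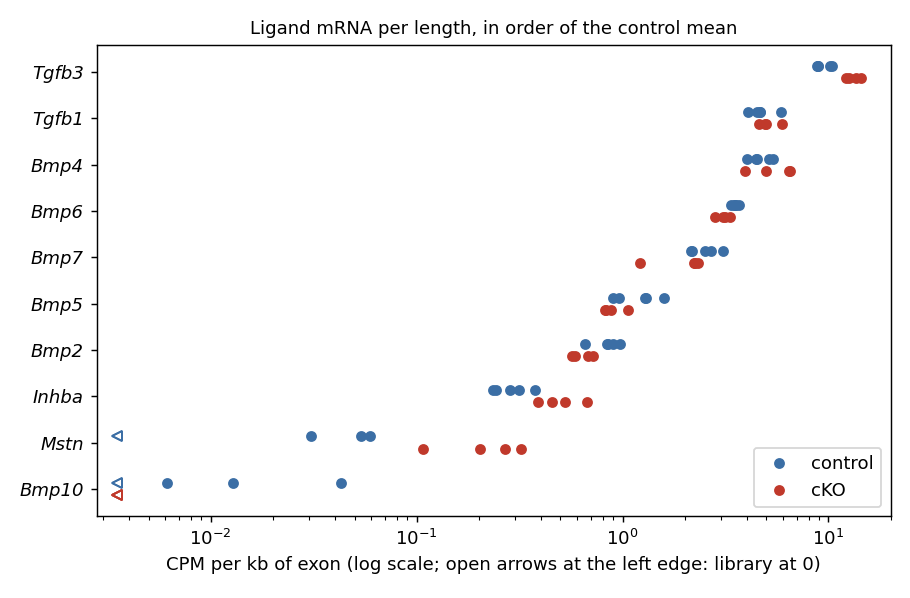
Level of each ligand mRNA in CPM per kb of exon on a log axis, 1 point per library (blue, 5 controls; red, 4 cKO), in order of the control mean; open arrows at the left edge are libraries with no count. Tgfb3 leads in both groups, at 9.45 CPM per kb in controls and 13.2 in cKO, and Mstn and Bmp10 lie lowest.

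Summed over the 10 genes per kb, the mix of branches differed between the groups. The 6 BMP genes made up 44.5, 48.3, 47.5, 49.4 and 44.9% of the sum in the controls, in replicate order, and 35.0, 40.1, 39.4 and 40.1% in the cKO libraries. Tgfb1 and Tgfb3 together made up 51.9 ± 2.19% (SD, n = 5) in controls and 58.9 ± 2.08% (SD, n = 4) in cKO. Inhba and Mstn together held 1.17 ± 0.270% and 2.39 ± 0.662%. None of these shares overlapped between the groups. Because the shares add up to a fixed total, the lower BMP share in cKO includes the rise of Tgfb3. The ratio of Tgfb3 to Tgfb1 was 2.01 ± 0.212 in controls and 2.60 ± 0.351 in cKO.

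Of the 9 ligand genes tested, 2 were called as higher in cKO (at an adjusted p under 0.05, with over 1.5-fold change) and 0 as lower, against 4.01% and 2.72% of all 15318 genes tested (6.72% in either direction). At an adjusted p under 0.05 alone 3 were higher and 0 lower, against 8.25% and 8.03% of all genes. DESeq2 gave the same counts, and at an unadjusted p under 0.05 there were 3 lower by either tool, Bmp2, Bmp5 and Bmp6. All libraries of one group lay above all of the other for 3 genes higher and 1 gene lower in cKO, against 8.16% and 8.58% of all genes. The median log2 fold change of the 9 genes was 0.11, beside 0.01 over all genes tested, with 5 estimates above 0 and 4 below. Mstn is counted here although it entered the test through its reads in cKO alone. With 9 genes these counts describe the ligands themselves and no more.

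**Figure D2:**
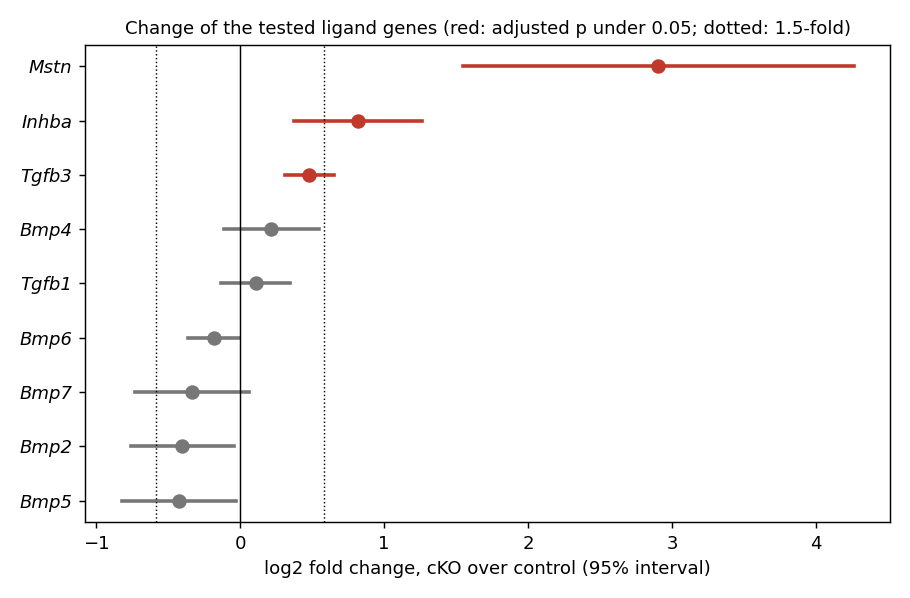
Log2 fold change of the 9 tested ligand genes in cKO over control with 95% intervals; red marks an adjusted p under 0.05 and dotted lines mark a fold change of 1.5. Mstn (2.91), Inhba (0.82) and Tgfb3 (0.48) pass the test, and the intervals of Bmp4, Tgfb1 and Bmp7 include 0.

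Mstn encodes myostatin, a ligand that limits the growth of skeletal muscle and is also made by cardiomyocytes. Its reads numbered 0, 5, 3, 0 and 5 in the 5 controls and 28, 11, 19 and 30 in the 4 cKO libraries, listed by replicate, 13 against 88 in all. As levels this was 0, 0.145, 0.0831, 0 and 0.162 CPM in controls and 0.871, 0.292, 0.550 and 0.726 CPM in cKO. The lowest cKO library, replicate 2, still held more than the highest control, and 2 controls had no read. The mean was 0.0779 ± 0.0769 CPM (SD, n = 5) in controls and 0.610 ± 0.249 CPM (SD, n = 4) in cKO, which is 2.91 as a log2 fold change (SE 0.62, 95% interval 1.55 to 4.26, adjusted p = 0.0076 by edgeR). This was the largest estimate among the ligands, and the least precise. No control reached the minimum count of 10, so Mstn entered the test through its reads in cKO alone. Without a filter on low counts the log2 fold change was 2.90, with an adjusted p of 0.0049 by edgeR. In the low-Rps3a3 libraries alone the log2 fold change was 2.88, with an adjusted p of 0.1296 by edgeR. Within the low-Rps3a3 and high-Rps3a3 sets the difference of mean log2(CPM + 0.5) was 0.88 and 1.09.

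The 8 skeletal muscle markers summed to 1.82 to 2.53 CPM in controls and 3.10 to 3.80 CPM in cKO, with no overlap, and 0 of the 2 members that could be tested passed (both had an unadjusted p under 0.05, and DESeq2 passed 0). These were Mylpf (0.759 ± 0.254 CPM in controls, 1.28 ± 0.0854 CPM in cKO, adjusted p = 0.0705 by edgeR) and Tnnt3 (0.865 ± 0.128 and 1.33 ± 0.113 CPM, adjusted p = 0.0529). The defining myosins of fast muscle were near 0 in both groups: Myh4 averaged 0.280 CPM in controls and 0.192 CPM in cKO, and Myh1 0.103 and 0.173 CPM. Myog, a regulator of muscle differentiation, lay at 0 to 0.0290 CPM in controls and 0.0726 to 0.156 CPM in cKO. The part of these markers in the Mstn result was not tested.

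Inhba encodes the activin beta A subunit, which forms activin A. It was read 50, 63, 56, 64 and 74 times in the controls and 108, 110, 86 and 178 times in the cKO libraries. The corresponding levels were 1.504, 1.82, 1.55, 2.01 and 2.39 CPM against 3.36, 2.92, 2.49 and 4.31 CPM. Control replicate 5 (2.39 CPM) and cKO replicate 3 (2.49 CPM) were the closest between the groups, and cKO replicate 4 was the highest library. Inhba averaged 1.86 ± 0.364 CPM (SD, n = 5) in controls and 3.27 ± 0.779 CPM (SD, n = 4) in cKO, a rise of 1.76-fold (log2 fold change 0.82, SE 0.21, 95% interval 0.37 to 1.26, adjusted p = 0.0174 by edgeR). The call depended on cKO replicate 4, without which the log2 fold change was 0.65 and the adjusted p 0.0607. Within the low-Rps3a3 and high-Rps3a3 sets the differences of mean log2(CPM + 0.5) were 0.66 and 0.97, and in the low-Rps3a3 libraries alone the adjusted p was 0.117 at a log2 fold change of 0.81. The related activin subunit gene Inhbb was at 1.94 ± 0.434 CPM in controls and 1.81 ± 0.286 CPM in cKO (log2 fold change -0.10, adjusted p = 0.785).

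Tgfb3, a TGF-beta isoform known from palate, lung and heart development, was measured at 34.5, 29.7, 30.1, 30.2 and 35.4 CPM in the controls and 41.4, 46.2, 42.3 and 48.5 CPM in the cKO libraries. Every cKO library lay above every control, with 35.4 and 41.4 CPM as the nearest values. The mean was 32.0 ± 2.71 CPM (SD, n = 5) in controls and 44.6 ± 3.34 CPM (SD, n = 4) in cKO, a rise of 1.40-fold (log2 fold change 0.48, SE 0.08, 95% interval 0.31 to 0.65, adjusted p = 0.0015 by edgeR). It passed the test but not the fold threshold. Of the 3 ligand genes that passed, it had the most reads, 961 to 2004 per library, and the narrowest interval. Within the low-Rps3a3 and high-Rps3a3 sets the differences of mean log2(CPM + 0.5) were 0.43 and 0.60, and in the low-Rps3a3 libraries alone the adjusted p was 0.0700.

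Tgfb1, the isoform best known for driving fibrosis, did not pass the test. Controls held 29.6, 23.5, 20.6, 22.7 and 23.4 CPM and cKO ventricles 24.9, 30.1, 24.9 and 23.3 CPM. The groups overlapped, and the highest control (replicate 1) and the highest cKO library (replicate 2) were nearly equal. The log2 fold change was 0.11 (95% interval -0.13 to 0.35, adjusted p = 0.558 by edgeR), so a rise of the size seen for Tgfb3 lay outside the interval.

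**Figure D3:**
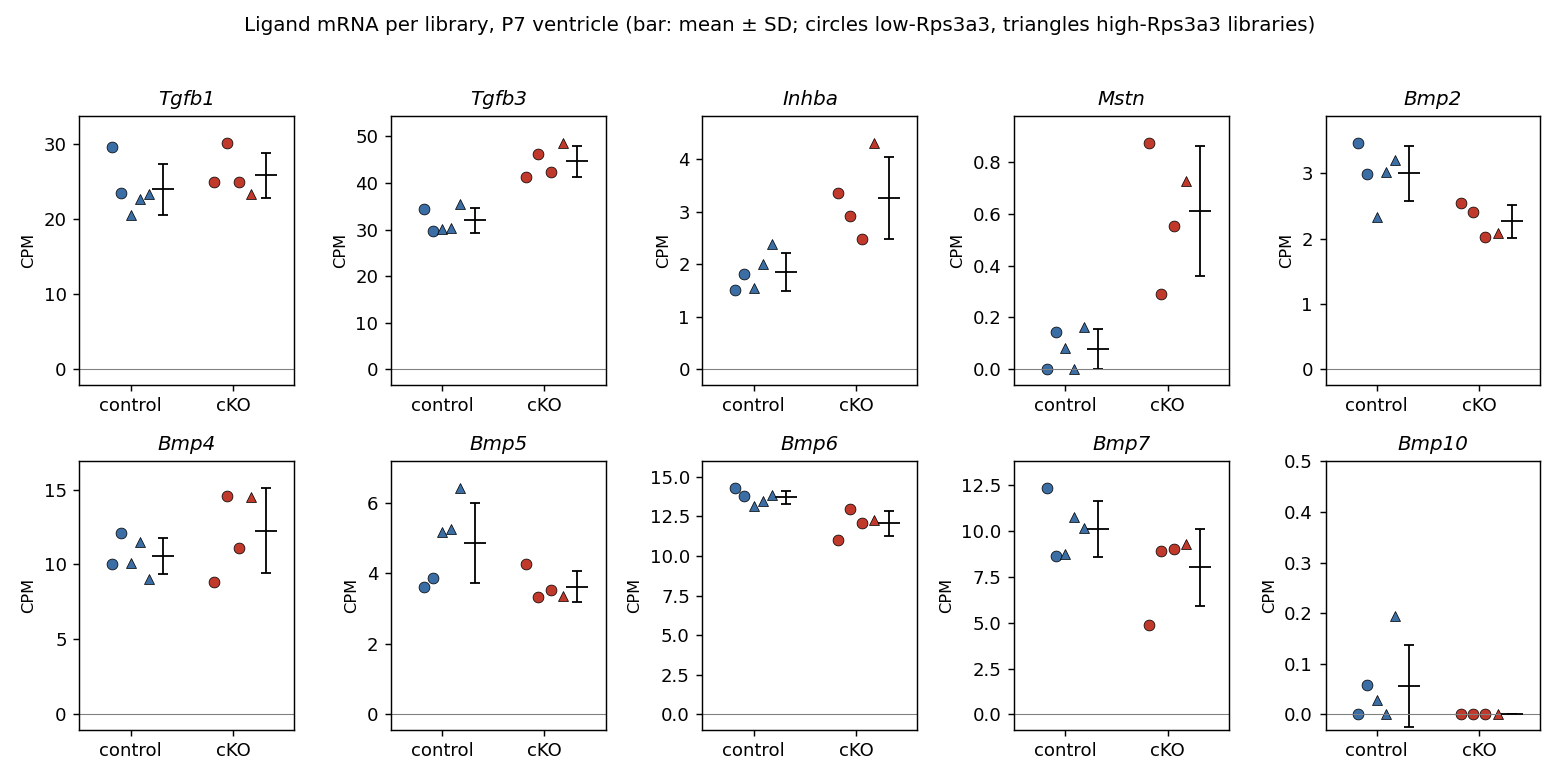
CPM of each of the 10 ligand genes in every library (blue, controls; red, cKO; circles, low-Rps3a3; triangles, high-Rps3a3), with mean and SD beside the points and a line at 0. Tgfb3, Inhba and Mstn have every cKO library above every control, Bmp6 has every cKO library below, and Bmp10 has no read in cKO.

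None of the 5 BMP genes tested passed, at an adjusted p of 0.122 to 0.372 by edgeR. Bmp2, a ligand of cushion and valve formation, was at 3.46, 2.98, 2.33, 3.02 and 3.20 CPM in the controls and 2.55, 2.41, 2.03 and 2.08 CPM in cKO. Control replicate 3 lay within the cKO range, and the other controls lay above it. The log2 fold change was -0.40 (95% interval -0.76 to -0.04, unadjusted p = 0.0306 and adjusted p = 0.122 by edgeR).

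Bmp6, which in other tissues is known to control iron balance, was the most even of the BMP genes in controls, at 14.3, 13.8, 13.2, 13.5 and 13.8 CPM. The cKO libraries held 10.98, 12.9, 12.1 and 12.2 CPM, and all of them lay below the lowest control, 13.2 CPM. The difference was small, at a log2 fold change of -0.18 (95% interval -0.36 to -0.01, adjusted p = 0.152 by edgeR). An exon of Bmp6 overlaps on the opposite strand with Txndc5, a protein disulfide isomerase gene that rose from 117.4 to 154.0 CPM (log2 fold change 0.39, adjusted p = 0.0024 by edgeR). The strand setting of the counting is not given in the sources used here, so reads at that overlap cannot be assigned with certainty.

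Bmp7, a ligand with roles in kidney, eye and heart development, was at 12.3, 8.66, 8.78, 10.8 and 10.2 CPM in the controls. In cKO it was at 4.88, 8.93, 9.01 and 9.30 CPM, so that replicate 1 alone lay below the controls. The log2 fold change was -0.33 (95% interval -0.73 to 0.06, adjusted p = 0.2497), and it was -0.46 in the fit to the low-Rps3a3 libraries alone. On the scale of mean log2(CPM + 0.5) the difference was -0.47 in the low-Rps3a3 set and -0.08 in the high-Rps3a3 set. Bmp5, a close relative of Bmp7, was at 3.61, 3.85, 5.18, 5.25 and 6.40 CPM in the controls and 4.26, 3.31, 3.53 and 3.37 CPM in cKO. Its levels in controls split by library set, with both low-Rps3a3 controls inside the cKO range and the 3 high-Rps3a3 controls above it. The log2 fold change was -0.43 (95% interval -0.82 to -0.03, adjusted p = 0.141), and it was -0.012 in the fit to the low-Rps3a3 libraries alone. The difference of mean log2(CPM + 0.5) was -0.66 in the high-Rps3a3 set, where it rests on 1 cKO library.

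Bmp4, required early for mesoderm and later for outflow tract septation, was at 10.02, 12.1, 10.1, 11.5 and 9.05 CPM in the controls and 8.80, 14.6, 11.1 and 14.5 CPM in cKO. The cKO libraries held both the lowest and the highest values. The log2 fold change was 0.22 (95% interval -0.11 to 0.55, adjusted p = 0.372 by edgeR), and it was 0.062 in the fit to the low-Rps3a3 libraries alone. The difference of mean log2(CPM + 0.5) was 0.49 in the high-Rps3a3 set, again with 1 cKO library.

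Bmp10, which is known as a ligand of embryonic trabecular myocardium and of the atria, was almost unread. It had 0, 2, 1, 0 and 6 reads in the controls and 0 in each cKO library. A count of 0 allows up to 0.0726 to 0.0933 CPM in a single cKO library and 0.0206 CPM over the 4 together, for counting error only. Its 9 control reads came mostly from replicate 5, which among the controls also had the highest sums of atrial markers (239.7 CPM, the others 144.2 to 189.7 CPM) and of epicardial markers (75.9 CPM, the others 22.7 to 40.2 CPM). The cKO libraries, with no Bmp10 read, had atrial sums of 216.4 to 286.7 CPM. The 7 atrial markers did not move as one: Myl7 (1.20) and Dkk3 (0.31) passed as higher, Stard10 (-1.44) passed as lower, against 8.25% and 8.03% of all genes, and 4 of the 7 estimates were below 0. In the low-Rps3a3 libraries alone Myl7 and Stard10 passed and Dkk3 did not. Of 6 markers of trabecular and conduction cardiomyocytes 2 were called, Cntn2 (-1.83) and Cpne5 (-1.24), both lower (2.72% of all genes were called lower), and Cntn2 alone passed in the low-Rps3a3 libraries. The part of these markers in the Bmp10 reads was not tested. The difference of mean log2(CPM + 0.5) was -0.14 (two-sided exact permutation p = 0.286), and it was -0.06 without control replicate 5. With these reads, 0 in 6 of 9 libraries, the smallest two-sided exact permutation p is 0.0476 in all and 0.286 for a fall, so no fall could have passed. A fall of Bmp10 was not detectable at this depth.

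The genes whose profile over the 9 libraries was most like that of a called ligand were found by the root mean square difference of centred log2(CPM + 0.5), among genes with a mean of at least 5 CPM. For Inhba these were Tbx18, a T-box factor of epicardium and sinus node (0.129), Baiap2l1 (0.134) and the glutamate transporter gene Slc1a3 (0.140). For Mstn they were Cep128 (0.199), the growth factor gene Hbegf (0.199) and Hsd17b11 (0.210). The log2 fold changes by edgeR of the 3 genes nearest to Inhba were 0.59 to 0.81 and those of the 3 nearest to Mstn 0.85 to 1.06. On this measure Inhba was at 0.82 and Mstn at 2.91. The 0.5 added to the CPM shrinks differences of a gene as low as Mstn, so its likeness to these genes holds on that scale only. The profiles span both genotypes, so a similar genotype difference was part of the choice.

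The other genes of the pathway, from ligands to targets, gave context for the 10 ligands. Of 102 such genes tested, 12 were called higher and 2 lower (13.7% in all), against 4.01% and 2.72% of all genes (6.72% in all). At an adjusted p under 0.05 alone 21 were higher and 5 lower, against 8.25% and 8.03% of all genes. Their median log2 fold change was 0.10. The lists were chosen with earlier results of these data known. Among 11 further ligands tested, 2 were called, both higher. Gdf15, a stress-induced ligand, was at 0.993, 0.492, 0.194, 0.440 and 0.517 CPM in the controls and 1.43, 4.06, 1.62 and 2.74 CPM in cKO, without overlap (log2 fold change 2.22, SE 0.42, adjusted p = 0.0035 by edgeR). It did not pass in the low-Rps3a3 libraries alone (1.68, adjusted p = 0.158). Gdf6, a BMP-like ligand of joints and skeleton, rose by 0.88 on the log2 scale (adjusted p = 0.0280) with overlapping groups, and lost its call in 6 of 17 alternatives, among them the low-Rps3a3 libraries alone (0.89, adjusted p = 0.178) and the fits without control replicate 3 or 5 or without cKO replicate 2 or 4 (0.70, adjusted p = 0.0922 without the last).

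By edgeR 0 of 6 type I receptor genes and 0 of 6 Smad genes passed, against 16.3% of all genes in either direction, a share at which lists this short may hold no passing gene. They had median log2 fold changes of -0.15 and -0.14. At an unadjusted p under 0.05 there were 1 type I receptor higher, 1 lower and 3 Smads lower, and DESeq2 passed Acvr1 and Smad3, both as lower. Among the receptors that bind the ligands that rose, Acvr2a and Acvr2b, the type II receptors of activin A and myostatin, were at -0.15 (adjusted p = 0.369 by edgeR) and 0.15 (adjusted p = 0.707). Acvr1b, their usual type I partner, was at -0.14 (adjusted p = 0.169), and the TGF-beta receptor genes Tgfbr1 and Tgfbr2 were at -0.16 (adjusted p = 0.346) and -0.11 (adjusted p = 0.257). Amhr2, the receptor of anti-Müllerian hormone, was called higher among the 5 type II receptors, against 4.01% of all genes. It went from 0.223 ± 0.106 to 0.622 ± 0.268 CPM (log2 fold change 1.48, adjusted p = 0.0253). At this low level it passed the count filter mainly through its reads in cKO. It lost the call in 5 of 16 alternatives. These included the low-Rps3a3 libraries alone (log2 fold change 0.80, adjusted p = 0.439) and the fits without control replicate 3 (adjusted p = 0.0588), without control replicate 5 (adjusted p = 0.0620) and without cKO replicate 4 (1.13, adjusted p = 0.0996). Of 8 co-receptor genes tested by edgeR, Tgfbr3 passed as lower and 0 passed as higher, against 8.03% and 8.25% of all genes. Tdgf1, a co-receptor of nodal, was below the count filter at 0.0661 ± 0.0595 CPM in controls and 0.402 ± 0.213 CPM in cKO. It passed as higher by DESeq2 and in the low-Rps3a3 libraries. The controls of that set held 0 and 0.0579 CPM, so Tdgf1 entered the test there through its reads in cKO alone. Tgfbr3 encodes betaglycan, which presents TGF-beta to its receptors and lets inhibin bind activin receptors. It was at 61.9, 69.2, 77.2, 68.8 and 74.5 CPM in the controls and 53.5, 34.8, 44.4 and 38.8 CPM in cKO, all below the lowest control (log2 fold change -0.71, SE 0.12, adjusted p = 0.0014). In the low-Rps3a3 libraries alone it was at -0.57 with an adjusted p of 0.0987.

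Of 17 secreted binders and antagonists tested, 4 passed as higher and 2 as lower, against 8.25% and 8.03% of all genes, and 2 were called, both higher. Fstl3, a follistatin-like protein that binds and blocks activin A and myostatin, was at 6.59, 5.10, 4.598, 6.13 and 5.63 CPM in the controls and 10.7, 12.1, 12.5 and 13.7 CPM in cKO. The highest control lay well below the lowest cKO library (log2 fold change 1.13, SE 0.12, adjusted p = 9.0e-05 by edgeR). Sost, which encodes sclerostin, a Wnt inhibitor related to the BMP antagonists, averaged 1.06 ± 0.355 CPM (SD, n = 5) in controls and rose to 4.67 ± 0.970 CPM (SD, n = 4) in cKO, which is 2.14 as a log2 fold change (SE 0.26) with an adjusted p of 0.00017. Fst, the gene of follistatin itself, was at 0.725 ± 0.234 and 0.820 ± 0.393 CPM (0.17, adjusted p = 0.778). The small proteoglycan gene Bgn, whose product binds TGF-beta, rose by 0.58 (adjusted p = 5.7e-05) and Fstl1 by 0.34 (adjusted p = 0.0045). The BMP modulator gene Bmper fell by 0.56 on the log2 scale (adjusted p = 0.0088; in the low-Rps3a3 libraries alone the log2 fold change was -0.73 with an adjusted p of 0.0527), and the BMP antagonist gene Nbl1 fell by 0.47 (adjusted p = 0.0407).

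Of 17 genes of ligand processing and latency tested, 3 passed as higher and 1 as lower, against 8.25% and 8.03% of all genes, and in the low-Rps3a3 libraries alone 1 passed as higher and 2 as lower. Itgb6, whose integrin releases active TGF-beta1 and TGF-beta3 from their latent form, was at 19.9, 20.5, 22.9, 22.9 and 18.3 CPM in the controls and 10.98, 6.87, 7.07 and 6.49 CPM in cKO. All cKO libraries were far below the controls, cKO replicate 1 the least so (log2 fold change -1.42, SE 0.15, adjusted p = 7.9e-05 by edgeR). Ltbp2, a matrix protein of the latent TGF-beta binding family, rose from 10.9 ± 1.63 to 22.7 ± 5.97 CPM (1.07, SE 0.17, adjusted p = 0.0014), but in the low-Rps3a3 libraries alone it was at 0.85 with an adjusted p of 0.0726. Mmp14 and Thbs1, a protease and a matrix protein known to release TGF-beta, rose by 0.43 (adjusted p = 0.00093) and 0.47 (adjusted p = 0.0126). Furin, a protease that cleaves the ligand precursors, was at -0.12 (adjusted p = 0.602).

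**Figure D4:**
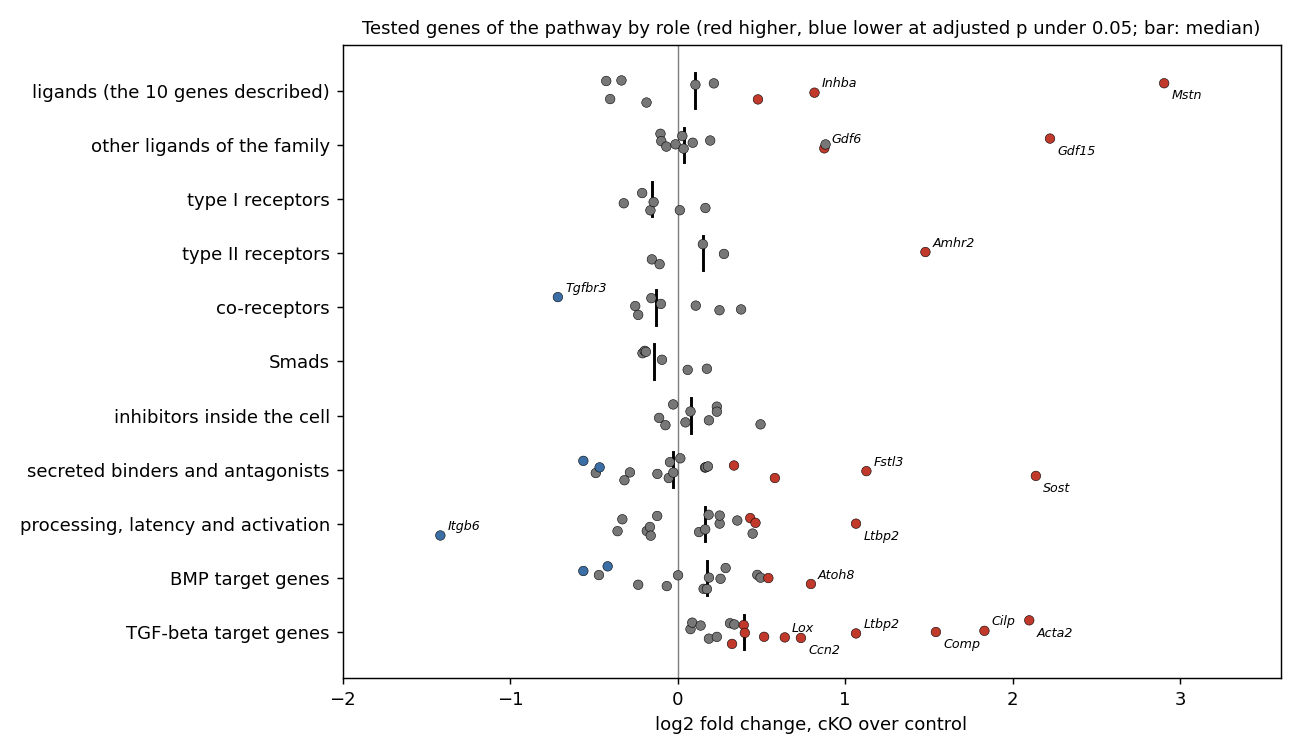
Log2 fold change in cKO over control of each tested gene by its role in the pathway, with the median of each list as a bar; red and blue mark an adjusted p under 0.05 and called genes are named. The TGF-beta target genes are all at or above 0.08 with a median of 0.40, whereas type I receptors (-0.15) and Smads (-0.14) have medians below 0.

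Among target genes, those of the TGF-beta branch were mostly higher in cKO and those of the BMP branch were mixed. All 17 TGF-beta target genes tested had estimates above 0, with a median log2 fold change of 0.40 beside 0.01 over all genes. Of these, 10 passed as higher and 6 were called, against 8.25% and 4.01% of all genes, and in the low-Rps3a3 libraries alone 7 passed. The list was chosen with earlier results of these data known, so these counts are not an independent readout of the branch. Acta2, the smooth muscle actin gene, was at 635.4, 887.1, 632.4, 532.3 and 618.2 CPM in the controls and 2051, 3165, 3296 and 2825 CPM in cKO (2.10, SE 0.16, adjusted p = 1.2e-05 by edgeR). Cilp, a matrix protein gene induced in fibroblasts, was at 6.29 to 9.33 CPM in the controls and 20.7 to 29.7 CPM in cKO (1.83, SE 0.15, adjusted p = 8.7e-06). The other called genes were Comp (1.54), Ltbp2 (1.07), Ccn2 (0.74) and Lox (0.64), all of matrix or matrix-associated proteins. The study itself counts Ccn2, under the name Ctgf, as a target of the coactivator YAP, and found it raised by qPCR. It also names Acta2 as a potential direct target of YAP and TEAD. The part of either pathway in these levels was not tested. The collagen genes Col1a1 (0.52) and Col1a2 (0.40), Fn1 (0.40) and Postn (0.33) passed below the fold threshold. The feedback regulators of the list had estimates above 0 that did not pass: Smad7 at 0.19 (adjusted p = 0.218), Skil at 0.23 (unadjusted p = 0.0186, adjusted p = 0.0889) and Pmepa1 at 0.08 (adjusted p = 0.469).

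The 6 fibroblast markers summed to 2083 to 2540 CPM in controls and 2448 to 2970 CPM in cKO, with overlap, and 2 of the 6 passed, Col1a1 and Tcf21, both higher, against 8.25% of all genes; in the low-Rps3a3 libraries alone 0 of 6 passed by edgeR, with Col1a1 at an unadjusted p under 0.05. Col1a1, which is also in the target list, went from 999.5 to 1430 CPM, and Tcf21 from 21.3 to 29.7 CPM. Dpt was at 290.3 CPM in controls and 242.2 CPM in cKO (unadjusted p = 0.0342, adjusted p = 0.132 by edgeR), and Dcn at 712.1 and 690.3 CPM, and neither passed. Mural cells also express Acta2, and their markers summed to 1782 to 1890 CPM in controls and 1753 to 2102 CPM in cKO; 0 of 6 passed by edgeR or DESeq2, and 3 had an unadjusted p under 0.05. Endocardial markers summed to 68.4 to 88.0 CPM in controls and 84.2 to 103.4 CPM in cKO, and of 5 genes 3 passed as higher and 1 as lower, against 8.25% and 8.03% of all genes, with 2 higher and 0 lower by edgeR in the low-Rps3a3 libraries alone (2 and 1 at an unadjusted p under 0.05). In bulk tissue, more cells of a type and more RNA per cell cannot be told apart, and the part of cell mixture in the target levels was not tested.

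Of 15 BMP target genes tested, 2 passed as higher and 2 as lower, against 8.25% and 8.03% of all genes, with a median of 0.18. In the low-Rps3a3 libraries alone 0 of 15 passed by edgeR, and 2 were higher and 2 lower at an unadjusted p under 0.05. Id1 and Id3, the most direct Smad1 and Smad5 targets, were at 0.16 (adjusted p = 0.454 by edgeR) and 0.26 (adjusted p = 0.469). The related gene Id2 rose by 0.54 (adjusted p = 0.0191), and the transcription factor gene Atoh8 was called, from 5.16 ± 0.822 to 8.95 ± 2.505 CPM (0.80, SE 0.18, adjusted p = 0.0104), with 0.78 and an adjusted p of 0.193 in the low-Rps3a3 libraries alone. Tbx20, a cardiac T-box factor gene, fell by 0.42 on the log2 scale (adjusted p = 0.0050), but in the low-Rps3a3 libraries alone it was at -0.36 with an adjusted p of 0.1004. Bmper, named above, is the other gene of the list that passed as lower. The lists share genes, so their counts are not independent. Smad7 is in both target lists, and Bmper also in that of the secreted binders. Ltbp2 is counted as called both under processing and latency and among the TGF-beta targets. Skil, Smad6 and Bambi are shared between lists as well.

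**Figure D5:**
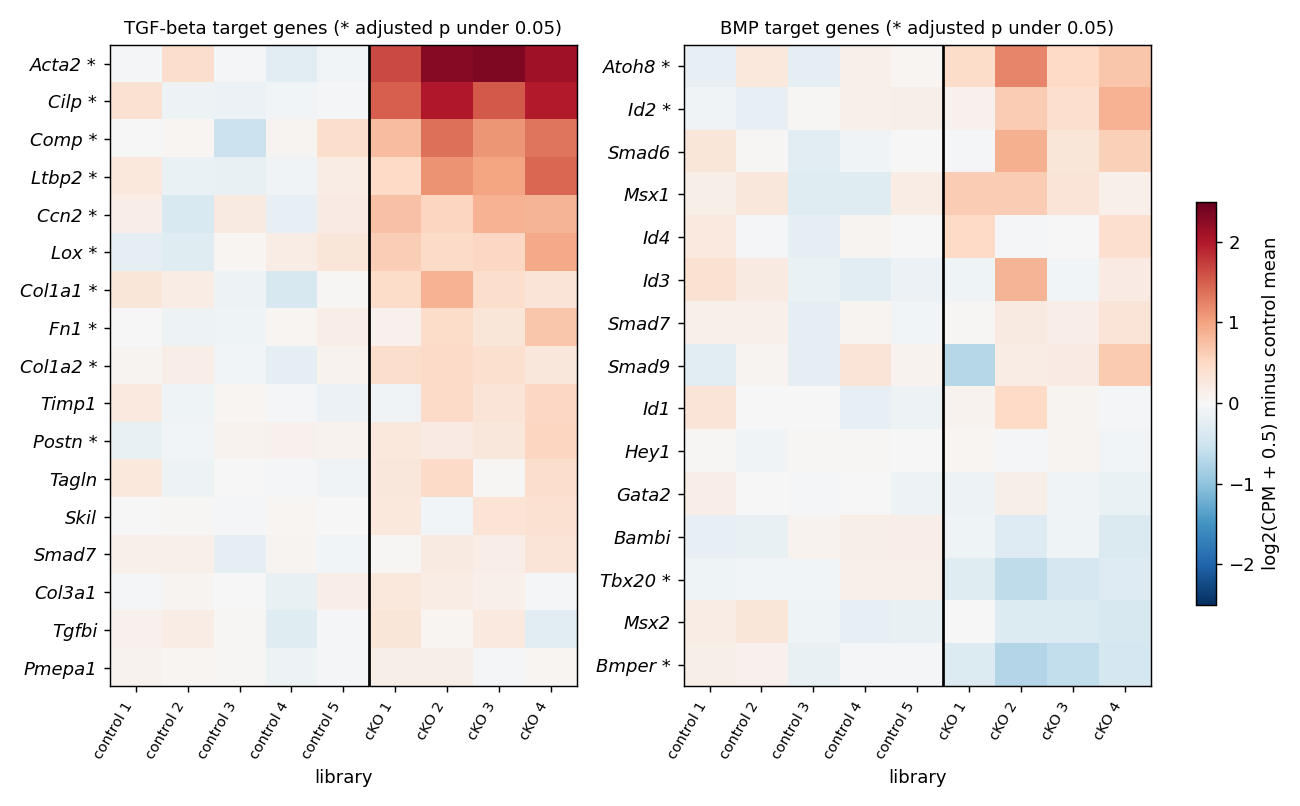
Log2(CPM + 0.5) of TGF-beta target genes (left) and BMP target genes (right) in each library, as the difference from the control mean (red higher, blue lower), with controls left of the black line and cKO right; asterisks mark an adjusted p under 0.05. In the left panel 10 of 17 genes carry an asterisk, all higher in cKO, and in the right panel 2 of 15 are higher and 2 lower.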

How the data were processed

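RNA-Seq was available for 5 control and 4 cKO ventricles by the labels. The count of control animals is not the same in the study's methods and in a legend; the labels were followed, giving n = 5. The authors deposited 1 table of raw read counts per gene with a column per library (0 other sample columns). Per the study's methods, stranded poly(A) libraries were sequenced as single-end reads and mapped to mm10; the submitters' processing notes name STAR 2.4.2a and HTSeq 0.6.1 without a role. The annotation and strand setting are not given in the sources used here.

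Symbols, coordinates and exon lengths were those of GENCODE M21, whose assembly GRCm38 equals mm10 (36429 of 38293 identifiers, 99.8% of counts). Counts were tested in edgeR 4.0.16 (R 4.3.3) by quasi-likelihood F tests, with TMM scaling, filterByExpr at a minimum count of 10, a robust fit and genotype alone, two-sided, with Benjamini-Hochberg adjustment over 15318 genes. Genes at an adjusted p under 0.05 with over 1.5-fold change were called. Standard errors are the log2 fold change over the root of F. CPM are counts per 1e6 of the TMM-scaled total. Bmp10, below the filter, was compared by exact permutation over 126 splits.

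The named genes are the 10 ligands, each called pathway gene, up to 3 passing genes of each list with the lowest adjusted p, the 3 genes nearest in profile to each called ligand, and Arid1a; other genes were named after their values were seen. The ligands, the lists and the Rps3a3 split were chosen with earlier results of these data known. The result of 1 gene of the lists is not reported here. Scripts were tested on simulated data. Alternatives were DESeq2 1.42.0, RLE scaling, other filters, covariates, pseudocounts and thresholds, and leaving out each library.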

Additional observations from a re-analysis of the deposited data

Results flagged for a closer look

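In 1 of 21 groups of libraries tested, a library stood apart from the rest of its group by Dixon's criterion, a share that chance alone gives in about 1 of 20 groups. Bmp7 in cKO replicate 1 was at 4.88 CPM, whereas the nearest cKO library was at 8.93 CPM, a gap of 0.918 of the range of the group. Without this library the log2 fold change of Bmp7 was -0.16 (adjusted p = 0.4497 by edgeR), against -0.33 with it, and neither passed.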

How the results depend on the processing

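Of 474 values of the 28 tested named genes (the genes named only for a profile like that of a ligand are not counted) under the alternatives, 452 kept their direction and their side of the threshold, 22 no longer passed and 0 reversed. The 2 called ligands became 1 (Inhba) with a filter at a mean of 1 CPM, which removes Mstn from the test, and 0 in the low-Rps3a3 libraries, a fit to 5 libraries in which 620 genes in all were called in place of 1030 (849 in place of 2493 at an adjusted p alone); by edgeR 3 ligands still had an unadjusted p under 0.05 there. Leaving out 1 library gave 1 to 2 called ligands, the lower number without cKO replicate 4. The 14 called pathway genes became 26 without the fold threshold and 9 in the low-Rps3a3 libraries, and they ranged from 12 to 18 with 1 library left out. Between 2 and 3 neighbours overlapped in the order of levels. The Bmp10 difference ranged from -0.18 to -0.06 with 1 library left out and was -0.51 with a pseudocount of 0.1. With the replicate number as a block 2 ligands and 12 pathway genes were called; same-numbered libraries did not deviate together (correlations -0.05, 0.07, -0.01 and 0.30), so the numbers were not taken as pairs. With 13 reads in controls, Mstn is limited by depth.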
